A study of Mus musculus with 10 samples.

Results

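Periportal and pericentral hepatocytes of mouse liver at ZT12 were compared within each library, and the genes that differed between them are described here. The cells were chosen by a position score made from measured values: in each library every cell's UMI counts (distinct tagged mRNA molecules) were scaled to 10000 per cell, logged and standardised, and the mean of 8 periportal landmark genes minus the mean of 8 pericentral landmark genes gave the score. The cells of a library were ranked by score and cut into 3 equal parts, the top part taken as periportal and the bottom part as pericentral. This gave 1438 periportal and 1438 pericentral cells at ZT12, together 2876 of the 4318 ZT12 cells and of the 18378 cells of the series. Library A gave 236 cells a zone, library B 823 and library C 379. The remaining 1442 ZT12 cells formed the middle part.

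The study asked how gene expression in liver varies with time of day and with position in the lobule. It holds 10 single-cell libraries of hepatocytes, with 3 from ZT0, 2 from ZT6, 3 from ZT12 and 2 from ZT18. Zeitgeber time (ZT) is the hour of the lighting schedule, starting at ZT0 when lights go on. All groups were C57BL/6 male mice aged 3 months on regular chow given without restriction, and all were anaesthetised with ketamine and xylazine. Hepatocytes were freed by collagenase perfusion, enriched on Percoll and profiled with the 10x 3' kit, version 2. The number of mice behind a library is not given in the sources used here, so the spread between libraries may be in part technical.

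Blood enters the liver lobule beside the portal vein and bile duct and leaves at the central vein, and hepatocytes along this path divide their work. Periportal hepatocytes, next to the oxygen-rich inflow, are known for urea synthesis, glucose production, amino acid breakdown and secretion of plasma proteins. Pericentral hepatocytes are known for glutamine synthesis, bile acid synthesis and metabolism of foreign compounds. Wnt signals from the central vein endothelium are known to maintain much of the pericentral programme.

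The ZT12 libraries held 1454623 (A), 7144803 (B) and 1991992 (C) UMIs, with 1736.5, 2611 and 1588 UMIs in the median cell, so B carried the least counting error. All 6 hepatocyte markers were detected, with a summed level of 48460 to 74910 UMIs per 1000000 in periportal and 25030 to 54920 in pericentral cells. Markers of other cell types were low in both zones: the 7 macrophage markers summed to at most 10.6 per 1000000, the 5 lymphocyte markers to at most 1.57, the 6 stellate markers to at most 8.44 and the 3 neutrophil markers to at most 23.2, with Clec4f, Adgre1, Csf1r and C1qa, Cd3e, Cd79a and Nkg7, Des, and Retnlg at 0 UMIs. The 9 endothelial markers summed to 63.3 to 105 per 1000000 in pericentral and 63.2 to 75.4 in periportal cells, 648 of their 744 UMIs were from Dpp4, and Clec4g and Rspo3 were at 0. Of 880 UMIs of the 3 erythroid markers 868 were from Alas2. Mitochondrially encoded genes took a larger share of UMIs in periportal cells, with medians of 26.2%, 19.6% and 13.3% in libraries A, B and C against 23.6%, 14.8% and 11.1% in pericentral cells. With these genes left out of the score and the sums, the zone test described below called 853 genes (403 periportal, 450 pericentral). Of these, 783 were among the 792 of the main fit. Any other part of this share in the results below was not tested. Columns name cells by number, so shared cell barcodes could not be counted.

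The landmarks are given as a description, since they chose the cells. Cyp2e1, the pericentral enzyme of ethanol and drug oxidation, was at 4134, 3026 and 6410 CPM (a gene's UMIs per 1000000 of its sum, with TMM scaling) in the pericentral cells of libraries A, B and C, and at 133, 81.9 and 136 CPM in the periportal cells. Cyp2f2, a periportal cytochrome P450, was at 34.4, 76.7 and 5.70 CPM in pericentral and 937, 1305 and 1694 CPM in periportal cells. All 16 landmarks lay on their side in all 3 libraries. The smallest ratio of the means was that of Mgst1, a microsomal glutathione transferase, with 7230, 5205 and 7373 CPM in pericentral and 3258, 3171 and 3782 CPM in periportal cells. The score is continuous and its parts have no gap: in library B the pericentral part ended at -0.397 and the middle part began at -0.3969, and the middle part ended at 0.7086 where the periportal part began at 0.7126. When the score was made from every other landmark, the resulting pair of scores had r = 0.774, 0.755 and 0.821 across the cells of libraries A, B and C, and put 65.6%, 60.1% and 70.5% of cells in the same part.

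Leaving out the landmarks, 8879 genes averaged 3 CPM or more, and 792 of them differed between the zones by edgeR's quasi-likelihood test with the library as a block and Benjamini-Hochberg adjusted p below 0.05. That is 8.92% of the genes tested. Of these, 375 were higher in periportal cells (4.22%) and 417 were higher in pericentral cells (4.7%). The share on the periportal side was 47.3%, and 32% when sums were scaled by library size alone, which moved the median log2 difference of all genes from 0.003 to -0.094. Of the called genes, 778 differed in the same direction in all 3 libraries, against 39.5% of all genes tested. For 528 called genes the 3 periportal values did not overlap the 3 pericentral values, and the share over all genes tested is not given here. The same values chose the called genes, so both counts are a description. The median called gene differed 1.86-fold. A difference of at least 2-fold was fitted for 148 periportal and 187 pericentral genes, and of at least 4-fold for 54 and 80. The share called rose with level, from 3.8% of genes at 3 to 20 CPM to 9.1% at 20 to 100 CPM and 26.6% above 100 CPM, so small differences of low genes were often not detectable at this depth. Counts of called list members below stand against these shares. In the sums, fewer cells with a transcript and fewer copies per cell cannot be told apart.

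**Figure D1:**
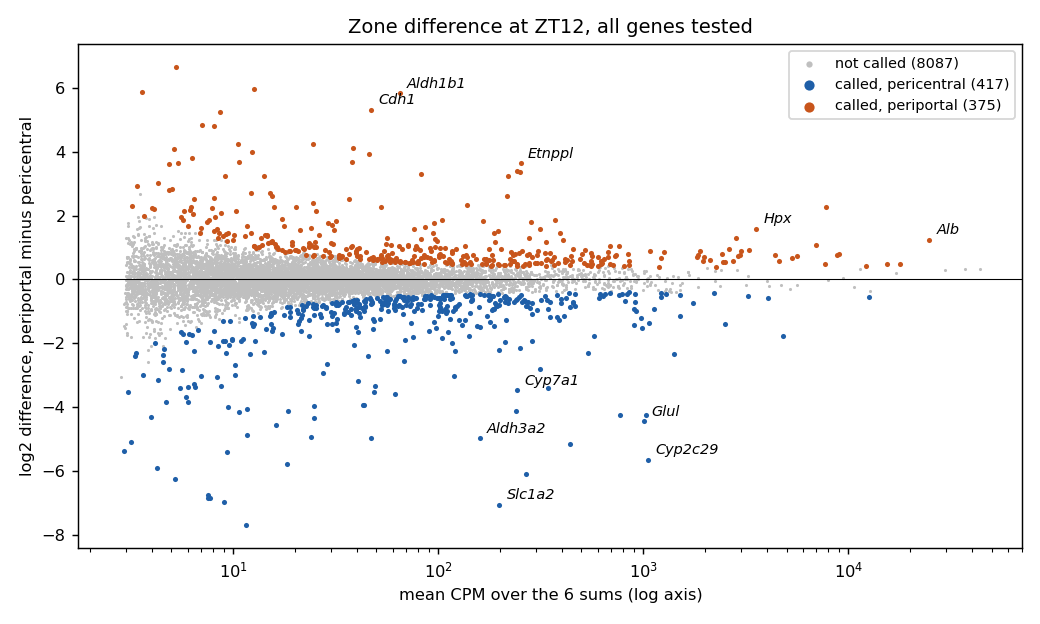
Each point is a gene tested at ZT12, with its mean CPM over the 6 sums on a log axis and its log2 difference, periportal minus pericentral, on the vertical axis. The 417 pericentral calls reach further from 0 than the 375 periportal calls, and most genes, in grey, were not called.

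Sizes differed between libraries. Among the 292 periportal calls with a mean of at least 20 CPM, the median log2 difference of CPM + 1 was 0.80 in library A, 0.60 in B and 0.92 in C. Among the 333 such pericentral calls it was -0.94, -0.66 and -0.98. Library C held the largest difference for 56.2% and 53.2% of them, and library B, the deepest, for 10.3% and 11.7%. By these medians the zones of library B were the least apart on both sides. Counting error is larger in A and C, so depth and the distance between zones cannot be told apart here.

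The largest differences on the pericentral side included Slc1a2, Glul and several cytochrome P450 enzymes. Slc1a2, a glutamate transporter of the cell membrane, was at 397, 140.1 and 646 CPM in the pericentral cells of libraries A, B and C. In the periportal cells it was at 5.63, 1.73 and 0 CPM. Its fitted log2 difference was -7.05 ± 0.30 (SE of the fit, 3 libraries, adjusted p = 3.99e-17, edgeR), the largest among called genes averaging 20 CPM or more. This SE, like the other SEs given here, comes from the fitted model and is not the spread between libraries. By library the log2 difference of CPM + 1 was -5.91, -5.67 and -9.25 in A, B and C, with the scaling of all 10 libraries. Glul, glutamine synthetase, which binds ammonia that escaped the urea cycle, was at 1730, 628 and 3494 CPM in pericentral and 86.4, 46.4 and 90.0 CPM in periportal cells (log2 difference -4.43 ± 0.20, adjusted p = 1.38e-16). Library C had the highest and library B the lowest pericentral level of both genes, and the zones did not overlap. Rhbg, an ammonium transporter, was at 19.3, 14.1 and 72.6 against 1.88, 0.866 and 2.86 CPM (-4.13 ± 0.43).

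The promoters of Slc1a2, Glul and Cyp2c29, which were among the genes highest on the pericentral side, are shown with that of Aldh1b1. Aldh1b1 was first on the periportal side among called genes of at least 20 CPM. They are shown because these genes differ in the same cells in opposite directions. The 250 bases before each start are given 5′ to 3′ from RefSeq (GRCm38.p6), with capitals for the core of TCF/LEF sites, CTTTGA, through which Wnt signals act, the E-box CACGTG and the D-box TTATGNAA of clock factors, each searched on both strands.
Slc1a2 promoter, chr2:102706188-102706437, plus strand: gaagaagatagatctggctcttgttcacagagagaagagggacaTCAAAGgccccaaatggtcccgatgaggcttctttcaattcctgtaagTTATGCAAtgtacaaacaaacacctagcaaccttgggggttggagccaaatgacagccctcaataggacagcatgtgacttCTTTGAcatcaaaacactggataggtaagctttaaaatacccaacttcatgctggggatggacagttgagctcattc
Glul promoter, chr1:153899679-153899928, plus strand: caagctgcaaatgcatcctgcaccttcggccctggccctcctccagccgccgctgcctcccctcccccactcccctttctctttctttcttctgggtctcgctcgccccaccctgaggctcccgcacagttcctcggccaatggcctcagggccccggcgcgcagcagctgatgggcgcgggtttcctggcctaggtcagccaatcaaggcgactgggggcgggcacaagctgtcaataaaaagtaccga
Cyp2c29 promoter, chr19:39286835-39287084, plus strand: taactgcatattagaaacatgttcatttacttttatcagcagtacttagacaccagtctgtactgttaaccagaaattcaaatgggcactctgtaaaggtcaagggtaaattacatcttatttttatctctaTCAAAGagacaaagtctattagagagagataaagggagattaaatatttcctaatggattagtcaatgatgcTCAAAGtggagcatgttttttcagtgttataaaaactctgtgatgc
Aldh1b1 promoter, chr4:45798772-45799021, plus strand: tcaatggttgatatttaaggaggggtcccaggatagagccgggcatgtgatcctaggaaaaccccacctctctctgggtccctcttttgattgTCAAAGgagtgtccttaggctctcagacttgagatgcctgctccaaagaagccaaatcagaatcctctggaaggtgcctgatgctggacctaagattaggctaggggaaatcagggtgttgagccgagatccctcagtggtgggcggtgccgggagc
The Slc1a2 stretch holds 3 matches, a TCF/LEF core, a D-box and a second TCF/LEF core, in that order. That of Cyp2c29 holds 2, both TCF/LEF cores, that of Aldh1b1 holds 1, a TCF/LEF core, and that of Glul none. Over the windows of 300 bases that RefSeq gives for 6885 of the 8879 tested genes, the TCF/LEF core occurred in 15.8% of windows of pericentral calls, 14.1% of periportal calls and 11.7% of genes not called. The D-box occurred in 6.4%, 4.1% and 2.1%, and the E-box in 8.9%, 7.3% and 10.7%. Over all 8833 windows the shares were 12% for the TCF/LEF core, 2.4% for the D-box and 10.5% for the E-box. A match is a run of letters and does not show binding.

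Cytochrome P450 enzymes of families 1 to 3, which oxidise drugs and steroids, lay mostly on the pericentral side: of 34 tested besides the landmarks, 17 were higher in pericentral cells, 3 in periportal cells and 14 were not called, with a median log2 difference of -0.80 against 0.003 over all genes tested. Cyp2c29 was at 2063, 868 and 3296 CPM in the pericentral cells of libraries A, B and C and at 47.0, 27.7 and 28.6 CPM in the periportal cells (-5.64 ± 0.22, adjusted p = 1.77e-17). Cyp2c37 was at 691, 198 and 699 against 16.9, 3.47 and 2.86 CPM (-6.08 ± 0.24), and Cyp2a5, which oxidises nicotine and coumarin, at 579.6, 329 and 1679 against 16.9, 21.7 and 5.71 CPM (-5.15 ± 0.31). Pericentral levels were lowest in library B for these 3 genes, and the zones did not overlap for any of them. Cyp2c50 and Cyp2c54 had log2 differences of -4.25 ± 0.17 and -4.13 ± 0.22, and Cyp2c38 one of -5.77 ± 0.48 with 40.8, 36.9 and 31.3 CPM in pericentral and 0, 0.866 and 0 CPM in periportal cells. Cyp2a12 was higher in periportal cells (0.90 ± 0.15). Cyp2a4, a steroid hydroxylase, was called on the periportal side (1.77 ± 0.27), at 5.63, 124 and 1.43 CPM in periportal and 4.29, 30.9 and 8.54 CPM in pericentral cells of libraries A, B and C. Library C ran the other way, and without library B the log2 difference was -1.02 and not called, so the call rests on that library. Por, the reductase that passes electrons to these enzymes, was at 515, 427 and 629 against 197, 182 and 321 CPM (-1.18 ± 0.14, adjusted p = 1.38e-07). Cyp3a25 was not called, at 1022, 389 and 529.7 against 792, 373 and 374 CPM. Members of the Cyp2a and Cyp2c families share much of their sequence, so how reads were split between near copies is uncertain.

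Enzymes that conjugate foreign compounds and handle glutathione showed 16 of 48 members higher in pericentral and 5 in periportal cells (median -0.38). Gstm2 and Gstm3, glutathione transferases, were at 62.2, 128 and 154 and 94.5, 84.8 and 109.6 CPM in pericentral cells. In periportal cells they were at 9.39, 13.4 and 1.43 and 16.9, 23.8 and 10.00 CPM, with log2 differences of -3.59 ± 0.26 and -2.24 ± 0.21. On the periportal side, Ugt2b38, a glucuronosyltransferase, was at 35.7, 71.0 and 78.6 CPM against 0, 10.3 and 24.2 (2.51 ± 0.26). The sulfotransferase Sult5a1 was called (2.83 ± 0.64), and the call ended without library B (3.24). Gpx1, a glutathione peroxidase, was not called (0.30 ± 0.12). Among aldehyde and alcohol enzymes, 8 of 29 were higher in pericentral and 5 in periportal cells (median -0.05). Aldh3a2, which oxidises fatty aldehydes, had nearly the same pericentral level in each library, 300.5, 305 and 329 CPM, and periportal levels of 7.51, 12.6 and 4.29 CPM (-4.97 ± 0.22, adjusted p = 8.12e-17). Rdh16, a retinol dehydrogenase, was at 135, 81.4 and 149.5 against 33.8, 35.1 and 18.6 CPM (-1.79 ± 0.21).

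The bile acid synthesis list had 8 of 17 members higher in pericentral cells and 1 in periportal cells (median -0.36). Cyp7a1, the rate-limiting enzyme of the classical pathway, was at 639.7, 205 and 476 CPM in pericentral and 63.9, 13.9 and 51.4 CPM in periportal cells (-3.47 ± 0.17, adjusted p = 1.23e-15). Cyp7b1, of the alternative pathway, was at 122, 57.0 and 404 against 9.39, 7.80 and 127 CPM (-2.23 ± 0.21). For Cyp7b1 library C exceeded the others in both zones, so the zones overlapped across libraries while each library was higher in pericentral cells. Cyp27a1, the sterol hydroxylase, was at 251, 212 and 255 against 78.9, 99.6 and 146 CPM (-1.13 ± 0.15). Cyp39a1, which hydroxylates an oxysterol, was the periportal member, at 50.7, 71.9 and 32.9 CPM against 6.44, 24.9 and 2.85 (1.84 ± 0.24).

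Hepatocyte transporters were higher in pericentral cells for 11 of 22 tested and in periportal cells for 2 (median -0.56). Slco1b2, which takes up organic anions and bile acids, was at 3022, 1431 and 2651 CPM in pericentral and 589.7, 331 and 453 CPM in periportal cells (-2.33 ± 0.14, adjusted p = 1.00e-13). Slc13a3, a carboxylate transporter, had 42 pericentral UMIs, at 10.7, 7.28 and 28.5 CPM, and no periportal UMI in any library. Against a floor of 3 UMIs over the 3 periportal sums it was at least 15.2-fold higher in pericentral cells. Slc22a7, which carries organic anions, was higher in periportal cells, at 22.5, 44.6 and 62.9 CPM against 2.15, 13.3 and 7.12 (2.13 ± 0.27).

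Wnt targets and feedback genes were higher in pericentral cells for 7 of 19 tested and in periportal cells for 1 (median -0.49). Tbx3, a transcription factor, had 77 UMIs and 17.2, 19.7 and 32.8 CPM in the pericentral cells of libraries A, B and C and none in periportal cells, at least 27.8-fold lower by the same floor. Lgr5, a receptor for R-spondins that raise Wnt signals, had 22 pericentral UMIs and none in periportal cells, at least 7.94-fold lower. Of all 792 called genes, 9 had no periportal UMI and 2 had no pericentral UMI. Tnfrsf19, a receptor of the TNF family, was at 15.0, 5.14 and 14.2 CPM in pericentral and 0, 0.866 and 0 CPM in periportal cells. Notum and Rnf43, which dampen Wnt signals, were at 23.6, 17.1 and 9.97 and 25.8, 11.1 and 22.8 CPM in pericentral cells and at 11.3, 3.90 and 1.43 and 3.76, 6.07 and 5.71 CPM in periportal cells. The Notum call ended without library B (-1.48), and the Rnf43 call without A (-1.22) or C (-1.29). Ccnd1, cyclin D1, was called on the pericentral side (-0.88 ± 0.22), yet only library B was higher there, at 17.2, 114 and 15.7 CPM in pericentral and 18.8, 50.2 and 21.4 CPM in periportal cells of libraries A, B and C. Without library B its log2 difference was 0.32 toward periportal cells, so the call rests on that library. Ctnnbip1, an inhibitor of β-catenin binding to TCF, was the periportal member, at 82.6, 77.1 and 62.9 CPM against 0, 5.57 and 2.85 (4.12 ± 0.29, adjusted p = 8.66e-12). Ctnnbip1 and Notum, both inhibitors of the pathway, were thus called in opposite directions.

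Among nuclear receptors and other hepatocyte factors, 5 of 36 were higher in pericentral and 2 in periportal cells (19.4% called, against 8.92% of all genes tested, median -0.13). Nr1i3 (CAR), a sensor of foreign compounds that acts on P450 genes, was at 208, 157 and 196 CPM in pericentral and 52.6, 41.2 and 47.1 CPM in periportal cells (-1.98 ± 0.15, adjusted p = 6.03e-11). Ahr, the aryl hydrocarbon receptor, was at 109.5, 29.6 and 94.0 against 15.0, 6.93 and 17.1 CPM (-2.41 ± 0.23). Pparg, a receptor that acts on lipid storage genes, was called with a log2 difference of -3.27 ± 0.58, and the call ended without library B (-3.43). Zbtb20 and Hnf4a, general hepatocyte factors, were not called, with 0.22 ± 0.13 and 0.18 ± 0.14.

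On the periportal side, Aldh1b1, a mitochondrial aldehyde dehydrogenase, had the largest difference among called genes of at least 20 CPM. It was at 126, 104 and 157 CPM in the periportal cells of libraries A, B and C and at 0, 3.0 and 0 CPM in the pericentral cells (5.82 ± 0.32, adjusted p = 2.66e-14). Cryl1, an enzyme of gulonate metabolism, was at 48.8, 52.0 and 41.4 against 2.15, 3.43 and 0 CPM (4.23 ± 0.35), and Cib3, a calcium-binding protein, at 132, 60.6 and 74.3 against 0, 6.43 and 2.85 CPM (3.91 ± 0.31). Hsd17b6, a steroid and retinol dehydrogenase, was at 392, 538 and 264 CPM in periportal and 23.6, 88.3 and 7.12 CPM in pericentral cells (3.23 ± 0.23). Pericentral levels of these 4 genes were highest in library B, and the zones did not overlap.

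**Figure D2:**
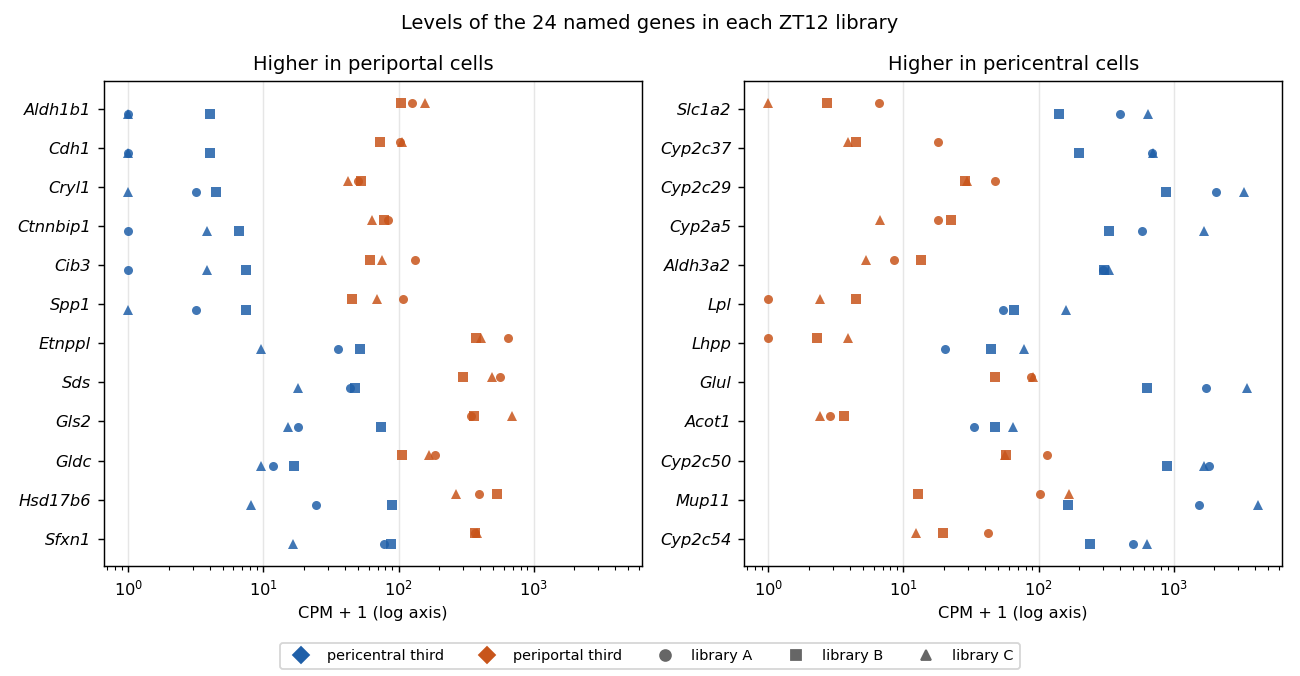
Levels of the 12 genes with the largest called difference on each side among genes averaging at least 20 CPM with 1 direction in all 3 libraries. Values are CPM + 1 on a log axis, with 1 symbol per library and zone. The zones are apart in every library for all 24 genes, and the values of both zones overlap across libraries for Mup11 only.

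Amino acid breakdown enzymes were higher in periportal cells for 13 of 35 tested and in pericentral cells for 5 (median 0.22). Sds, serine dehydratase, which turns serine into pyruvate, was at 562, 297 and 493 CPM in periportal and 42.9, 46.3 and 17.1 CPM in pericentral cells of libraries A, B and C (3.40 ± 0.21, adjusted p = 6.50e-13). Gldc, the decarboxylase of the glycine cleavage system, was at 186, 106 and 167 against 10.7, 15.8 and 8.54 CPM (3.29 ± 0.22), and Etnppl, which breaks down phosphoethanolamine, at 644, 375 and 406 against 34.4, 50.6 and 8.54 CPM (3.64 ± 0.23). Sfxn1, a mitochondrial serine transporter outside this list, had almost equal periportal levels of 370, 367 and 380 CPM and pericentral levels of 77.3, 87.0 and 15.7 CPM (2.60 ± 0.22). Csad, an enzyme of the pathway from cysteine to taurine, went the other way, at 367, 1018 and 499.8 CPM in pericentral and 48.8, 83.6 and 48.6 CPM in periportal cells (-3.39 ± 0.17). Mat1a, which makes S-adenosylmethionine, was not called (0.36 ± 0.12).

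Urea cycle and ammonia genes were higher in periportal cells for 8 of 18 and in pericentral cells for 2, Glul and Rhbg (median 0.29). Gls2, the liver glutaminase, which frees ammonia for urea, was at 344, 361 and 696 CPM in periportal and 17.2, 73.3 and 14.2 CPM in pericentral cells (3.37 ± 0.28, adjusted p = 2.34e-10). Cps1, the entry enzyme of the cycle, was at 4806, 2141 and 4862 against 3010, 1362 and 1852 CPM (0.90 ± 0.14), and Arg1, arginase, at 1033, 912 and 1136 against 511, 617 and 357 CPM (1.06 ± 0.15). Each library was higher in periportal cells for both genes, but the zones of Cps1 overlapped across libraries. Otc, ornithine transcarbamylase, differed by 0.55 ± 0.14, and without library C, at 0.41, it was not called. The cytosolic transaminase Got1 was at 443, 262 and 476 against 225, 107 and 152 CPM (1.31 ± 0.14). Glud1, glutamate dehydrogenase, was not called (-0.35 ± 0.13). Glul and Gls2, which make and split glutamine, were thus called on opposite sides, and the fitted differences of Cps1, Arg1 and Otc were smaller than those of both.

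Of the genes of gluconeogenesis and glycolysis, 11 of 24 were higher in periportal cells and 1, Pfkfb1, in pericentral cells (median 0.43). The Pfkfb1 call (-1.14 ± 0.34) ended without library A (-0.90) or C (-1.05). Fbp1, fructose bisphosphatase, was at 689, 1019 and 1066 CPM in periportal and 313, 595 and 427 CPM in pericentral cells (1.06 ± 0.14, adjusted p = 1.16e-06), and Pck1, which commits oxaloacetate to glucose synthesis, at 4787, 3492 and 2984 against 2570, 2187 and 1800 CPM (0.77 ± 0.13). G6pc, which frees glucose from its phosphate, was not called: it was at 404, 291 and 553 CPM in periportal and 468, 266 and 456 CPM in pericentral cells (0.08 ± 0.13), lower in periportal cells in library A only, and -0.02 when scaled by library size alone. Ldha, lactate dehydrogenase, was not called (-0.13 ± 0.13). Of 13 glycogen genes, 1 was called on each side (15.4% called, against 8.92% of all genes tested): Gys2, the liver glycogen synthase, on the periportal side (0.81 ± 0.15) and Ppp1r3g, a subunit that directs a phosphatase to glycogen, on the pericentral side (-1.06 ± 0.32, not called without library C at -0.54).

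Secreted plasma proteins formed the longest run of periportal calls, with 40 of 72 higher in periportal cells, 3 in pericentral cells and 29 not called (median 0.52). Differences ran from 0.43 to 1.58 on the log2 scale among the 40. Hpx, hemopexin, which binds free haem, was at 3442, 6024 and 6328 CPM in periportal and 1116, 2855 and 1511 CPM in pericentral cells (1.58 ± 0.15, adjusted p = 3.99e-09). Alb, albumin, was at 25780, 43370 and 33020 against 10460, 26060 and 10220 CPM (1.24 ± 0.15). Its level was higher in periportal cells of each library, although the pericentral value of library B exceeded the periportal one of library A. Saa1 and Saa2, acute phase proteins, differed by 1.17 ± 0.14 and 1.51 ± 0.19, and library C held most of their signal, with Saa2 at 41.3, 35.5 and 801 CPM in periportal and 32.2, 11.6 and 248 CPM in pericentral cells. The 3 pericentral members were Serpina6, which carries corticosteroids (-1.15 ± 0.16), Igfbp1, which binds insulin-like growth factors (-0.73 ± 0.14), and the lectin Mbl1 (-0.51 ± 0.15). The Mbl1 call ended without library A (-0.43) or C (-0.41). Among apolipoproteins and lipoprotein assembly genes 6 of 23 were periportal and 2 pericentral (median 0.14). Apoa4 was at 184, 159.9 and 156 CPM in periportal and 51.5, 57.8 and 17.1 CPM in pericentral cells (1.86 ± 0.19), whereas Pon1, a lipoprotein-bound esterase, was at 82.6, 113 and 75.7 against 365, 410 and 464 CPM (-2.15 ± 0.15). Apoa2, the most abundant member, was not called (-0.36 ± 0.15). Chaperones and endoplasmic reticulum genes had 7 of 38 periportal and 2 pericentral members (23.7% called, median 0.21), with Herpud1 at 0.59 ± 0.13 and Dnaja1 at -0.66 ± 0.13.

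Lipid genes were divided. In fatty acid and triglyceride synthesis 6 of 33 were periportal and 4 pericentral (median 0.15). Acly, which makes cytosolic acetyl-CoA, was at 693, 408 and 653 CPM in periportal and 232, 128 and 119.6 CPM in pericentral cells (1.87 ± 0.15, adjusted p = 1.51e-10). Acaca, which carries out the next step, differed by 1.05 ± 0.17, and Fasn, fatty acid synthase, by 0.46 ± 0.14. The Fasn call ended without library B (0.42) or C (0.34). Scd1, the abundant desaturase, was not called (-0.19 ± 0.14). Lpl, lipoprotein lipase, was at 53.7, 64.3 and 159.5 CPM in pericentral and 0, 3.47 and 1.43 CPM in periportal cells (-4.96 ± 0.32), and Elovl3, an elongase, at 77.3, 49.3 and 114 against 3.76, 1.73 and 12.9 CPM (-3.93 ± 0.29). Acly, Acaca and Fasn were thus on the periportal side, and Lpl and Elovl3 on the pericentral side with larger differences.

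Fatty acid oxidation and ketogenesis showed 16 of 39 members higher in pericentral cells and 1 in periportal cells (median -0.43). Acot1, a cytosolic acyl-CoA thioesterase, was at 32.2, 46.7 and 64.1 CPM in pericentral and 1.88, 2.60 and 1.43 CPM in periportal cells (-4.35 ± 0.34, adjusted p = 5.58e-11). Cyp4a10, which starts the omega oxidation of fatty acids, was at 487, 561 and 605 against 33.8, 139.5 and 52.9 CPM (-2.80 ± 0.21). Cd36, a fatty acid uptake receptor, was at 27.9, 21.9 and 105 against 1.88, 6.93 and 1.43 CPM (-2.92 ± 0.38), and its pericentral level was highest in library C. Ppargc1a, a coactivator of mitochondrial and gluconeogenic genes, was the periportal member, at 33.8, 32.9 and 45.7 CPM against 12.9, 13.3 and 5.70 (1.62 ± 0.27). Cholesterol synthesis and uptake had 3 of 28 members called on each side (21.4% called, median 0.002), among them Sqle (0.82 ± 0.21) and Fdps (-0.67 ± 0.20). The Sqle call ended without library C (0.62) and the Fdps call without A (-0.63) or B (-0.37).

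Nuclear-encoded respiratory chain genes were called on the periportal side for 10 of 76 and on the pericentral side for none (median 0.22, 23 of 76 at an unadjusted p below 0.05). That is 13.2% called, against 8.92% of all genes tested and 26.6% of those above 100 CPM. Cox5b, of complex IV, was at 284, 387 and 210 CPM in periportal and 112, 266 and 132 CPM in pericentral cells (0.77 ± 0.15), and Sdhb, of complex II, at 171, 175 and 221 against 85.9, 114 and 125 CPM (0.76 ± 0.14). Of the 13 mitochondrially encoded genes 4 were called periportal (median 0.32), and each of these calls ended without at least 1 library. They were mt-Cytb (0.49 ± 0.12; 0.47 without library B), mt-Co2 (0.48 ± 0.12; 0.52 without A and 0.46 without B), mt-Nd3 (0.39 ± 0.12; 0.38, 0.40 and 0.38 without A, B or C) and mt-Nd6 (0.55 ± 0.17; 0.46 without A and 0.45 without C). The share of UMIs from these genes was higher in periportal cells of each library, as given above. The abundant mt-Co1 was not called (0.34 ± 0.12). Ribosomal protein genes went the other way in small steps: 12 of 80 were pericentral and none periportal (median -0.16). That is 15.0% called, above the 8.92% of all genes tested and below the 26.6% of those above 100 CPM. The largest of these differences was that of Rpl41, at 3671, 8058 and 2816 CPM in pericentral and 2342, 5397 and 2024 CPM in periportal cells (-0.57 ± 0.12, adjusted p = 0.00224). Rpl41 was higher in library B than in A and C in both zones, and higher in pericentral cells of each library. Haem and iron genes had 4 of 22 periportal and 3 pericentral members (median -0.23). Blvrb, biliverdin reductase B, and Cpox, of haem synthesis, were at 137, 216 and 155 and 273, 137 and 322 CPM in pericentral cells, and at 47.0, 68.9 and 47.1 and 75.1, 67.6 and 87.1 CPM in periportal cells.

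Adhesion and biliary-like genes included the largest periportal difference after Aldh1b1 among called genes of at least 20 CPM. Cdh1, E-cadherin, which joins epithelial cells, was at 101, 71.9 and 106 CPM in periportal and 0, 3.0 and 0 CPM in pericentral cells (5.32 ± 0.34, adjusted p = 8.15e-13). Cdh2, N-cadherin, was at 80.8, 44.2 and 88.6 against 88.0, 75.0 and 236 CPM (-0.86 ± 0.18), the opposite direction, a call that ended without library C (-0.57). Cldn2, a pore-forming tight junction protein, was at 13.2, 4.76 and 8.57 against 66.5, 50.6 and 99.7 CPM (-3.18 ± 0.26). Spp1, osteopontin, which bile duct cells make, was at 107, 44.6 and 68.6 CPM in periportal and 2.15, 6.43 and 0 CPM in pericentral cells (3.67 ± 0.34), and Sox9, a factor of bile duct cells and of hepatocytes beside them, at 7.51, 6.93 and 12.9 against 0, 0.428 and 1.42 CPM. The Sox9 call (3.62 ± 0.74) ended without library B (3.38). The 6 bile duct markers, Spp1 and Sox9 among them, summed to 47.7 to 109 UMIs per 1000000 in periportal and 1.57 to 7.18 in pericentral cells. Of their 310 UMIs over all ZT12 cells, 266 were from Spp1 and 40 from Sox9, while Krt19 had 2, Krt7 and Epcam 1 each and Cldn7 none. Of the whole list of 23, 4 were called periportal and 3 pericentral (median 0.23).

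Acute and immediate early genes had 7 of 25 periportal and 2 pericentral calls (median 0.31). Mt2 and Mt1, metallothioneins, which bind zinc and copper, were at 254, 111 and 109 and 915, 535 and 286 CPM in periportal and at 32.2, 58.7 and 9.97 and 249, 316 and 64.1 CPM in pericentral cells (1.76 ± 0.25 and 1.45 ± 0.18). Library C was lowest for both genes in pericentral cells. Among 22 clock and clock output genes Por was the only call, and 6 had an unadjusted p below 0.05 (4.5% called, below the 8.92% of all genes tested, median 0.02). Tsc22d3, the most abundant of the others, differed by -0.29 ± 0.14 and was not called. Major urinary proteins, carriers of pheromones, differed among themselves, with 4 of 21 pericentral and 3 periportal (median -0.38). Mup11 was at 1548, 165 and 4200 CPM in pericentral and 101, 11.7 and 166 CPM in periportal cells (-4.23 ± 0.18). Mup20, the male pheromone darcin, was at 14540, 7971 and 15750 CPM in periportal and 1717, 1892 and 4850 CPM in pericentral cells (2.27 ± 0.17, adjusted p = 3.82e-11). Most Mup genes are near copies, so the split of reads between them is uncertain.

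Genes long known as zonated were listed to check the ordering of cells, and their direction is not independent evidence, since the list was made from earlier work on zonation. All 15 tested pericentral genes were called on that side (median -4.97, and -4.13 with the 3 genes without periportal UMIs at their bound), and Axin2 was too low to test. Of 16 periportal genes 14 were called on that side (median 2.55), and G6pc and Hamp were not. Both were above 100 CPM in every sum of the 3 libraries.

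**Figure D3:**
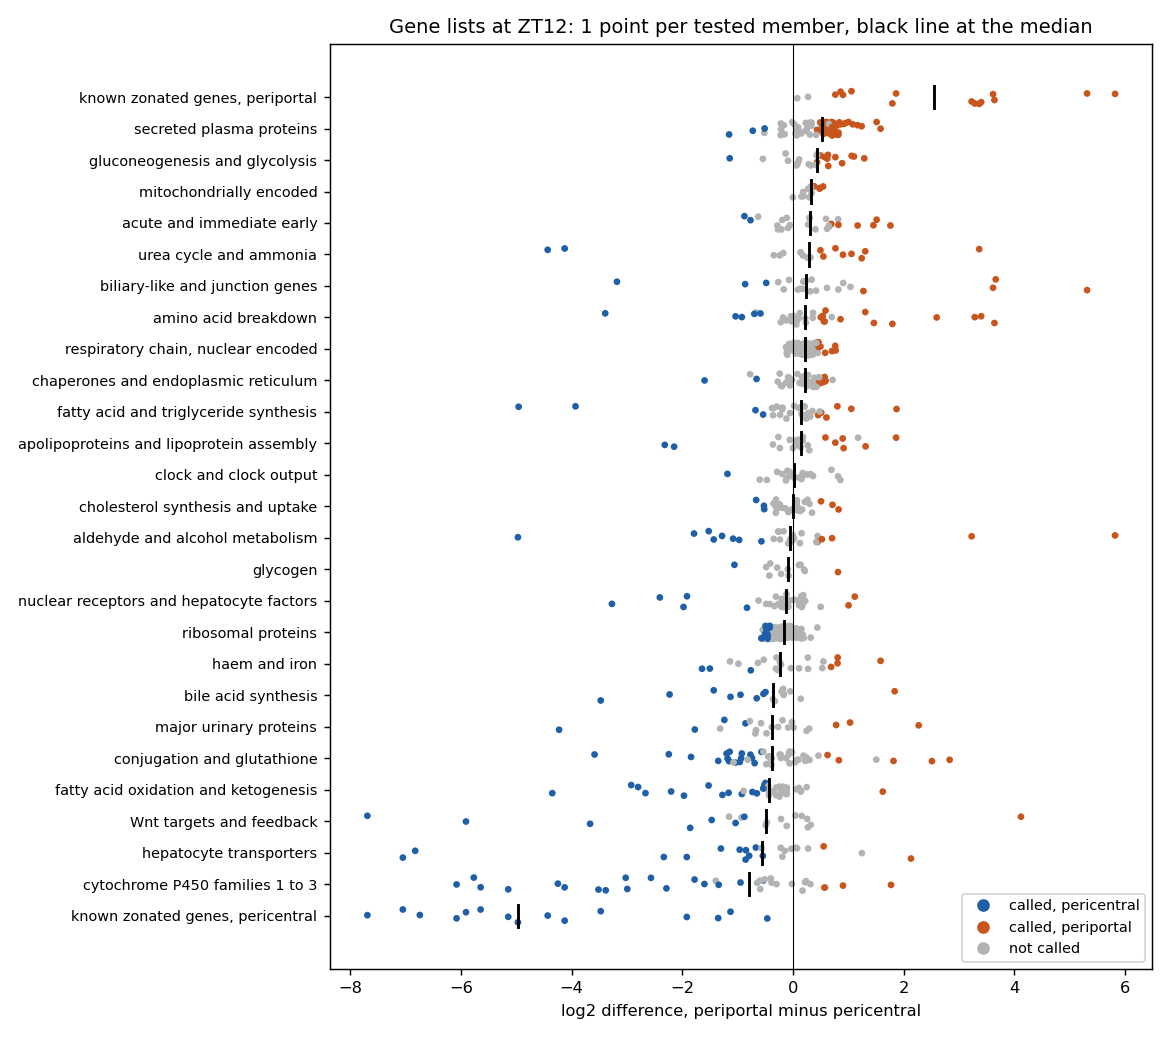
Each point is a tested member of a gene list, placed at its log2 difference, periportal minus pericentral, with lists ordered by their median (black line). Secreted plasma proteins sit close together to the right of 0 with a median of 0.52, while cytochrome P450 members spread far to the left with a median of -0.80.

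Cells of the middle part were set against the mean of both outer parts, on the log scale, to find genes that do not change evenly along the axis. Of 8870 genes tested 17 were called (0.192%), 14 higher and 3 lower, and 405 had an unadjusted p below 0.05. The middle part was the highest of the 3 in every library for 4 of them, Igfbp2, Hamp, Wfdc21 and Rsad2. Igfbp2, a binder of insulin-like growth factors, was at 249.7, 247 and 349 CPM in the middle part of libraries A, B and C. It was at 101, 162 and 129.7 CPM in pericentral and at 128, 170.4 and 254 CPM in periportal cells (0.80 ± 0.12 on the log2 scale, SE of the fit, 3 libraries, adjusted p = 0.000336, edgeR). Hamp, hepcidin, the hormone that limits iron release, was at 616, 889.9 and 387 CPM in the middle part. In the outer parts it was at 260, 715 and 119.8 CPM pericentral and 244, 734 and 246 CPM periportal (0.82 ± 0.14, adjusted p = 0.00106). Hamp was thus highest in the middle, although its ends were not called apart. Rsad2, an interferon-induced antiviral gene, was low, at 14.3, 12.2 and 41.8 CPM in the middle part (1.57 ± 0.34), and Cxcl9, an interferon-induced chemokine, at 57.1, 20.6 and 35.0 CPM against 8.60, 13.3 and 35.6 pericentral and 7.51, 6.92 and 4.28 periportal (1.43 ± 0.28). Igfbp2, Wfdc21 and Rsad2 are named because of their number, after their values were seen.

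The 3 genes lower in the middle were Glul, Slc1a2 and Cyp4a12b. Glul was at 114, 65.9 and 155 CPM in the middle part of libraries A, B and C, nearer to its periportal than to its pericentral level (-1.67 ± 0.17, adjusted p = 6.09e-08). Slc1a2 was at 7.14, 1.40 and 10.8 CPM in the middle part (-2.51 ± 0.52). Cyp4a12b, a fatty acid hydroxylase, was at 26.2, 25.7 and 129 CPM in the middle, 153, 81.3 and 339 CPM in pericentral and 41.3, 33.7 and 133 CPM in periportal cells (-0.94 ± 0.15). Other calls included zonated genes whose middle level lay nearer to their high end on the log2 scale, such as Cyp2c29 (1.10 ± 0.17), Cyp7a1 (0.73 ± 0.12), Gls2 (0.97 ± 0.18) and Etnppl (0.86 ± 0.16). Of the genes named here, Glul, Igfbp2, Cyp4a12b, Gls2 and Etnppl were called without any 1 of the libraries. The calls of Hamp (0.69), Cyp2c29 (0.65), Cyp7a1 (0.73) and Rsad2 (0.96) ended without library C. Those of Wfdc21 (0.38 and 0.41) and Cxcl9 (1.14 and 1.53) ended without A or C, and that of Slc1a2 (-2.36 and -2.01) without A or B. For the 71 periportal genes of at least 2-fold and 20 CPM the middle lay at a median of 60.3% of the way, on the log2 scale, from the low to the high end. For the 101 such pericentral genes it lay at 50.1%.

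Split into 8 layers of equal cell number, from layer 1 at the central to layer 8 at the portal end, the shapes differed between genes. The layers come from the same scores and are a description, in CPM without TMM factors. Glul was at 4568 ± 3335 CPM (mean ± SD, n = 3) in layer 1, 841 ± 1013 in layer 2 and 70.1 ± 35.3 in layer 8, and layer 1 held 75.3% of the summed level over layers. Slc1a2 was as narrow, with 79.2% in layer 1. Cyp2c29 declined over more layers, from 2616 ± 1407 CPM in layer 1 to 942 ± 772 in layer 4 and 22.9 ± 4.78 in layer 8, with 33.2% in layer 1. On the periportal side, Sds was still at 65.4 ± 30.7 CPM in layer 4 and reached 506 ± 197 in layer 8. Gls2 had reached 227 ± 51.3 CPM by layer 4 and lay at 479 ± 249.8 in layer 6 and 463 ± 272 in layer 8. Cps1 was lowest in layer 1, at 1061 ± 539 CPM, and lay between 2535 and 4252 CPM from layer 2 on. Hamp had its highest mean, 665 ± 172 CPM, in layer 5, and its highest layer was 5, 3 and 5 in libraries A, B and C.

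**Figure D4:**
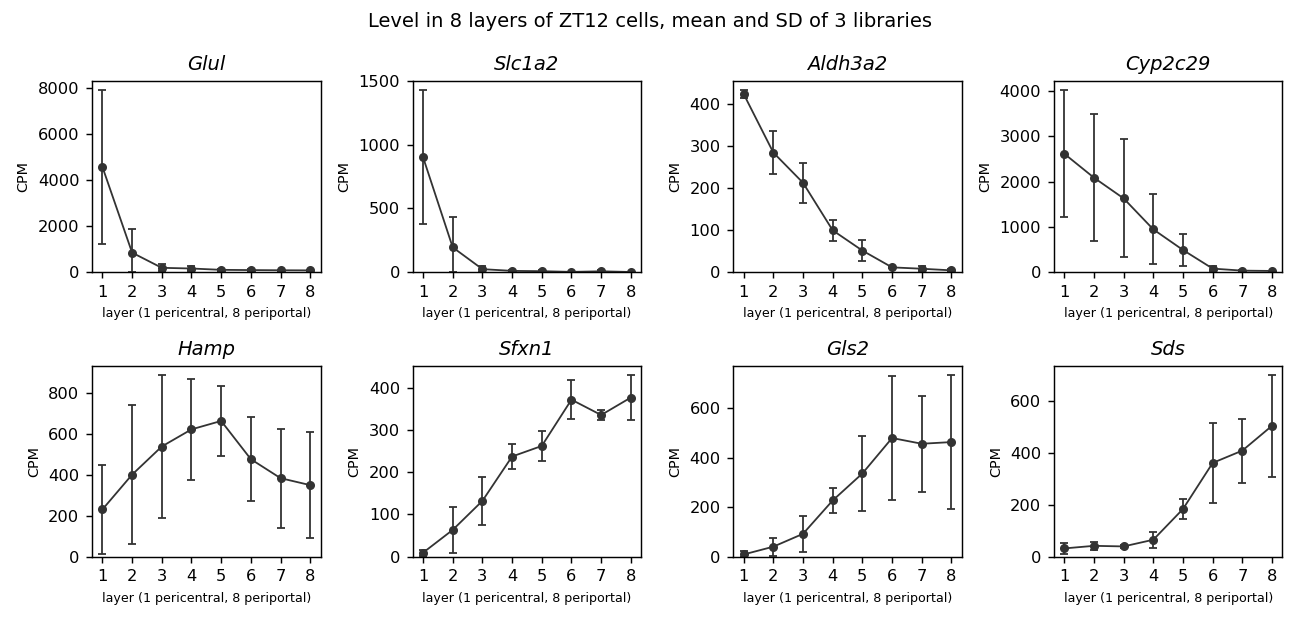
Mean CPM and SD over the 3 ZT12 libraries in 8 layers of equal cell number, for 8 genes, with layer 1 at the pericentral and layer 8 at the periportal end and bars that would pass 0 ended there. Glul and Slc1a2 drop after layer 1, Aldh3a2 and Cyp2c29 decline over several layers, and Hamp is highest inside. Sds rises up to layer 8, while Sfxn1 and Gls2 rise up to layer 6 and change little after it.

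Whether the zone difference at ZT12 departed from that at ZT0, ZT6 and ZT18 was tested as the ZT12 difference minus the mean of the other 3, over all 10 libraries. Of 8909 genes 3 were called (0.0337%), and 529 had an unadjusted p below 0.05. In Cyp2c29 the difference was -5.65 at ZT12 and -4.27, -3.86 and -4.48 at ZT0, ZT6 and ZT18 in turn, a departure at ZT12 of -1.45 ± 0.24 (adjusted p = 0.00726, edgeR). Its periportal level was 43.5, 26.0 and 27.2 CPM in the ZT12 libraries A, B and C, below the 58.9 to 232 CPM of the other 7 libraries. Pericentral levels at ZT12, 1940, 822 and 3109 CPM, overlapped the 1289 to 3752 CPM of the others. The Cyp2c29 call ended without library C at ZT12 (-0.94, adjusted p = 0.0803) and without library B at ZT6 (-1.26, adjusted p = 0.0513), and with cells thinned to 1000 UMIs (-0.89, adjusted p = 0.723) or cut at the median score (-0.38, adjusted p = 0.915). It also ended with narrower outer parts (-1.22), even-numbered (-0.86) or odd-numbered (-1.22) landmarks, genes of at least 20 CPM (-1.45), and without the 5% of cells with most UMIs (-1.18).

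Pkdcc, a secreted tyrosine kinase, had a zone difference of -1.40 at ZT12, toward pericentral cells. The difference was 0.71 ± 0.23 at ZT0, 0.22 ± 0.39 at ZT6 and 0.66 ± 0.34 at ZT18 (SE), and that of ZT6 was smaller than its SE. The departure at ZT12 was -1.93 ± 0.34 (adjusted p = 0.0112, edgeR). Pkdcc was at 26.2, 30.8 and 32.2 CPM in pericentral and 10.4, 15.4 and 1.36 CPM in periportal cells of the ZT12 libraries A, B and C, against 11.3 to 17.3 and 12.8 to 27.9 CPM at the other times. Pericentral levels at ZT12 were above those of every other library. Acly was higher in periportal cells at all 4 times, by 1.86 at ZT12 and by 0.90, 1.28 and 0.44 at ZT0, ZT6 and ZT18, larger at ZT12 by 0.99 ± 0.18 (adjusted p = 0.019). The Pkdcc call ended without library A (-1.85) or B (-1.94) at ZT6, with DESeq2 (-2.17), with cells of at least 2000 UMIs (-1.80) and with cells thinned to 1000 UMIs (-1.88). The Acly call ended without library C at ZT12 (0.76), A at ZT18 (0.90), and A (1.05) or B (0.97) at ZT6. It also ended with DESeq2 (1.02), even-numbered landmarks (0.97), a cut at the median score (0.77), cells of at least 2000 UMIs (0.78), genes of at least 20 CPM (0.99) and ZT12 set against ZT0 alone (0.96). No gene was called without library B of ZT6, and 24 were called without library C of ZT0. Of the 24 genes named by size, the others were not called in this test. Glul, for example, had zone differences of -4.32, -4.57, -4.44 and -2.37 at ZT0, ZT6, ZT12 and ZT18 (adjusted p = 0.829), and Gldc of 1.73, 1.80, 3.28 and 2.08 (adjusted p = 0.113).

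**Figure D5:**
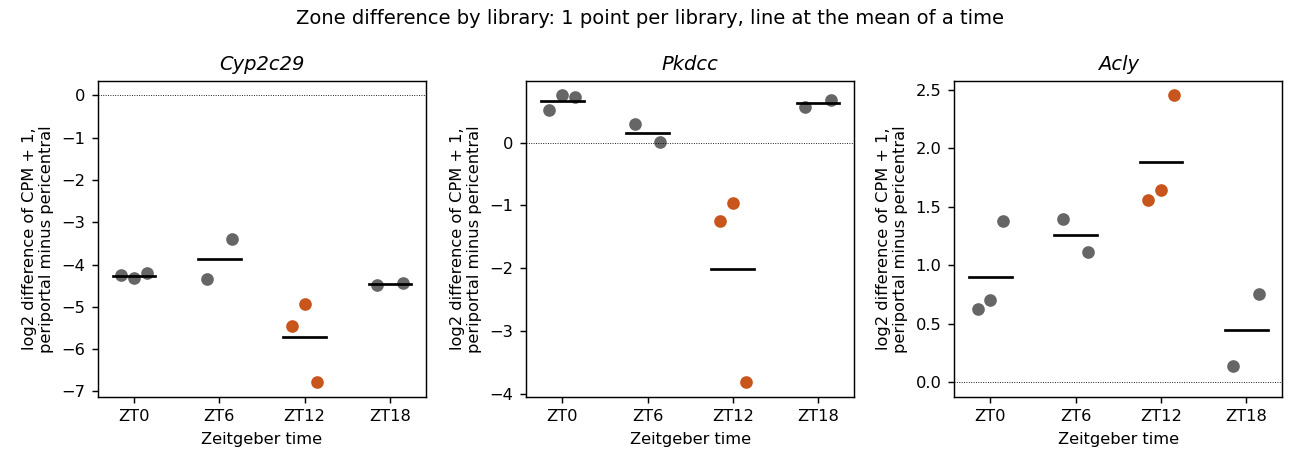
The zone difference, as log2 of CPM + 1 in periportal minus pericentral cells, in each of the 10 libraries for the 3 genes called, with a line at the mean of a time and ZT12 in orange. At ZT12 all 3 libraries lie below all others for Cyp2c29 and Pkdcc and above all others for Acly, a description, since the test chose these genes from the same libraries.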

How the data were processed

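Deposited values are UMI counts per gene and cell. Cell Ranger and the builds hg19 and mm10 are named, with no role or order, per the submitters' processing notes. The Cell Ranger version, annotation and cell filters are not given in the sources used here. All 18378 deposited cells were used, and no doublet caller was run. Of 14812 gene entries 14321 matched a symbol in the mouse reference table.

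Counts were summed per library and part and tested with edgeR 4.0.16 (R 4.3.3; glmQLFit, glmQLFTest, TMM scaling, mean of at least 3 CPM, library as a block, Benjamini-Hochberg threshold 0.05 over genes other than landmarks). Each SE was taken from the log2 difference and its F statistic (difference over root F), so it does not measure the spread between libraries. On simulated counts the zone test recovered 84% of genes changed by a log2 difference of 1 and 12.2% of those changed by 0.5, with 4 false calls among 8681. The changed genes were drawn only from those above a minimum mean count. The simulated spread followed the trend with level and not each gene's own value. These shares therefore do not cover low genes or genes that vary more than the trend.

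The cells, gene lists and tests were chosen with earlier results of these data known. Named genes were, per side, the 12 largest called differences with at least 20 CPM and 1 direction in all 3 libraries. From each list up to 4 called genes were taken by size and up to 2 uncalled ones by level. Cyp27a1, Cyp2a4, Cyp2a12, Cps1, Arg1, Otc, Pck1, Fasn, Notum, Rnf43, Ccnd1, Cdh2, Mbl1, Igfbp1, Serpina6 and Ppargc1a were named beyond that, after their values were seen. Some genes that the rule names are not reported here.

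Alternatives were other scaling (library size alone, relative log expression), DESeq2 1.42.0, other filters, zone cuts, landmarks and cell sets, no mitochondrially encoded genes, no block, all 10 libraries in 1 fit, and leaving out each library.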

Additional observations from a re-analysis of the deposited data

Results flagged for a closer look

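Of the genes tested for a zone difference at ZT12 that departs from the mean of ZT0, ZT6 and ZT18, 3 passed the interaction test (edgeR, adjusted p below 0.05). Cyp2c29 departed by -1.45 on the log2 scale (adjusted p = 0.00726), Pkdcc by -1.93 (adjusted p = 0.0112) and Acly by 0.99 (adjusted p = 0.019). In all 3 ZT12 libraries each gene lay beyond the 7 libraries of the other times. The test chose the genes from these same values, so this separation is a description and no further support. Each call ended in at least 1 of the fits that left out a library.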

How the results depend on the processing

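The count of 792 genes between the zones fell to 299 with DESeq2 (147 periportal, 152 pericentral), all among the 792, and to 378 with cells thinned to 1000 UMIs (184 and 194). Leaving out a ZT12 library gave 593 to 649 calls (290 to 296 periportal, 297 to 359 pericentral). All 24 genes named by size kept their call and direction under the alternatives run. They were chosen as the largest called differences and the alternatives reuse the same libraries, so this is a description and no independent support. The log2 difference of Ccnd1 ran from -1.07 to 0.318 over the fits without 1 library, and that of Cyp2a4 from -1.02 to 1.95, both turning without library B. That of G6pc was -0.019 with library size alone and ran from -0.017 (without C) to 0.201, and that of Hamp from -0.006 (without C) to 0.467. The 17 calls of the middle became 9 at 20 CPM or more, 7 with DESeq2, 6 with even-numbered landmarks, 36 with no filter, 26 with narrower outer parts, 11 with thinned cells, and 7 to 28 without 1 library. The 3 calls against the other times became 0 at 20 CPM or more (312 at an unadjusted p below 0.05), 1 with DESeq2, even-numbered landmarks or a cut at the median score, 5 with library size alone, 17 with no filter, and 0 to 24 without 1 library. The cause of these changes was not tested.

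Without the library as a replicate block, 144 genes were called between the zones (57 periportal, 87 pericentral) and 0 in the middle (edgeR, 102 at an unadjusted p below 0.05). The labels do not say that the letters A, B and C pair libraries across times, and the zone differences of same-letter libraries did not all deviate together: r over 0.1 was found for 3 of 13 same-letter pairs (-0.148 to 0.421) and 3 of 24 other pairs. The highest were 0.421 (C of ZT0 and ZT12) and 0.412 (B of ZT0 and ZT12), both same-letter. With 2 libraries at ZT6 and ZT18, deviations there mirror each other, so these pairs carry little information. With the letter as a replicate block on the zone difference, 17 genes were called against the other times.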
